A study of Mus musculus with 38 samples.

Results

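A set of 10 immediate early genes was followed through whole bone marrow and sorted osteoclast precursors of mice that had both zoledronic acid (ZA) and G-CSF, either alone or neither. They were chosen by symbol and found through their Ensembl identifiers: Fos, Fosb, Jun, Junb and Atf3, which encode subunits of the AP-1 class of transcription factors, Egr1, Klf6 and Ier2, and the feedback genes Dusp1 and Zfp36. All 10 were listed, among 47729 genes in the whole marrow table and 46679 in the precursor table. The mice were female C57BL/6J aged 6 to 7 weeks. ZA, a bisphosphonate that binds bone mineral and acts on bone-resorbing osteoclasts, was injected at 100 µg per kg. Recombinant human G-CSF, the growth factor of neutrophils, was injected at 50 µg per kg on 3 consecutive days, starting 2 days after ZA in mice that had both. Whole marrow came as 2 combined (ZA and G-CSF), 2 ZA, 3 G-CSF and 2 untreated libraries. Precursors are marrow cells that lacked lineage markers and carried CD115, the receptor of M-CSF; the gate does not separate osteoclast precursors from other early monocyte-lineage cells. Sequencing run 1 held 8 of them, 3 combined, 1 ZA, 3 G-CSF and 1 untreated, beside 3 whole marrow libraries (1 ZA, 1 G-CSF and 1 untreated). Whether replicates were separate animals is not in the labels, and the spread behind each p-value may therefore be technical.

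Immediate early genes are switched on within minutes of a signal such as a growth factor, a cytokine or stress, before any new protein is needed. MAP kinases reach their promoters through factors already bound there (SRF with its ternary complex partners, CREB, and AP-1 itself). Fos and Jun proteins pair to form AP-1, which in the monocyte lineage is required for osteoclast formation: mice without Fos lack osteoclasts. Dusp1 removes phosphate from the MAP kinases, and Zfp36 (tristetraprolin) destabilises AU-rich mRNAs, so both limit the response that induced them. Their transcripts are short-lived, and cell handling such as tissue dissociation, staining and sorting is known to induce them.

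Promoter sequence from RefSeq (build GRCm38.p6) was searched for 8 members. No sequence was found for Ier2, and Egr1 was left out of the search, so its motifs are not given. The promoters of Fos, Dusp1 and Jun are shown, because Fos was the member called between marrow groups and Dusp1 and Jun were among those called between precursors and marrow. Each runs 5′ to 3′ on the strand of its gene. Capitals mark the cAMP response element TGACGTCA, the TATA box TATAAA and the GC box GGGCGG, each searched on both strands.
Fos, chr12:85473640-85473889, plus strand: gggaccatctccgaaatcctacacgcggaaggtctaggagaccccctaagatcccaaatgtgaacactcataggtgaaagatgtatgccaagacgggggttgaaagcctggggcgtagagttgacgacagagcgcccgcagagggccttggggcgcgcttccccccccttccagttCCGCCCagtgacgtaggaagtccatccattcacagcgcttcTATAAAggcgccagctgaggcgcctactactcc
Dusp1, chr17:26508520-26508722, minus strand: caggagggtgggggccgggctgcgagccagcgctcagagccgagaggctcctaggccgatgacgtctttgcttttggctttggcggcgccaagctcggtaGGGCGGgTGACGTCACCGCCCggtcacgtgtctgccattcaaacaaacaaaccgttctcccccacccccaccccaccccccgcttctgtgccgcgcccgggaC
Jun, chr4:95052223-95052472, minus strand: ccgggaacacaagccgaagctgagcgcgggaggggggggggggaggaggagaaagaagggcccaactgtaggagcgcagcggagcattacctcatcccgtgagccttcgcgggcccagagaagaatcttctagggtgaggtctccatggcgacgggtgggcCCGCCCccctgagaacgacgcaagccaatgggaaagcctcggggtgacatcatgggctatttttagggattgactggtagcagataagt
The Dusp1 stretch stops where an annotated exon begins, and its last capital is the first letter of a GC box that runs on past it. In Dusp1, TGACGTCA begins 143 bases before the start site, between GC boxes that begin 150 and 135 bases before it and share no base with it. In the 250 bases before the start site, TGACGTCA was found in 1 of 8 members (Dusp1), against 1.55% of the 32851 promoters in the table. TATAAA was found in 1 of 8 (Fos, 33 bases before the start), against 12.4% of all promoters. GGGCGG was found in 7 of 8, all but Junb, against 32.7%. The STAT motif TTCNNNGAA was found in 1 of 8 (Zfp36), against 7.02%. The core of the serum response element was found in 1 of 8 (Zfp36), against 1.47%. The whole Zfp36 window lies in annotated exons. The AP-1 motif TGANTCA was found in 0 of 8, against 6.75%. These matches describe letters in a window and say nothing of which factor was bound. Sites farther upstream, or with letters other than those of the motif, were not searched for.

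Estimated counts summed to 6.24 to 16.2 M (M for mega) per whole marrow library and to 21.0 to 33.2 M per run 1 precursor library. The limit that a count of 0 sets (3 counts, for counting error only) lay at 0.186 to 0.481 CPM (counts scaled to library size) in marrow and at 0.0904 to 0.143 CPM in run 1 precursors. The 3 run 1 marrow libraries are the marrow table's untreated 2, G-CSF 2 and ZA 2 libraries again (Pearson r of 0.9993 to 0.9996 across genes), so both sets of comparisons share them. In run 1 the markers separated the labelled tissues: 8 monocyte and precursor markers (Csf1r, Irf8, Kit, Flt3, Cd34, Ly6c2, Cx3cr1 and Ccr2) summed to 1786 to 3531 TPM (scaled to transcript length and library) in precursors and 132 to 511 TPM in marrow. The 8 erythroid markers summed to 343 to 10035 TPM in precursors and 289167 to 406111 TPM in marrow. In run 2, 5 of 15 libraries labelled precursors were nearer to run 1 marrow than to run 1 precursors in their correlation across genes, and 2 of 3 labelled marrow were nearer to run 1 precursors. Run 2 is therefore kept out of the results below.

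In whole marrow Fos was the only one of the 10 members that edgeR called in any comparison between groups. Fos was highest in the ZA libraries and lowest in the G-CSF libraries, 3.34-fold apart. No member passed the threshold by edgeR in any of the 3 comparisons with untreated marrow. By TPM, which divides by transcript length, Ier2 was the most abundant member with a median of 21.7 TPM over the 9 libraries (8.24 to 30.5), and Zfp36 followed with 12.8 TPM (4.01 to 19.6). Junb at 10.8 TPM (3.58 to 16.4), Klf6 at 10.7 TPM (4.04 to 14.5) and Dusp1 at 7.00 TPM (3.09 to 10.4) formed a middle set. Jun at 1.19 TPM (0.467 to 2.74), Fos at 1.10 TPM (0.525 to 2.54), Egr1 at 0.615 TPM (0.206 to 1.23) and Atf3 at 0.594 TPM (0.433 to 1.27) were low. The ranges of neighbours overlapped within each of these sets, while Dusp1 stayed above Jun in all libraries. Fosb, at a median of 0.0216 TPM (0 to 0.0747), stood below all others without overlap. Fosb had 0 to 3.36 counts per marrow library and did not pass the filter on low counts, so 9 members were tested there.

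**Figure D1:**
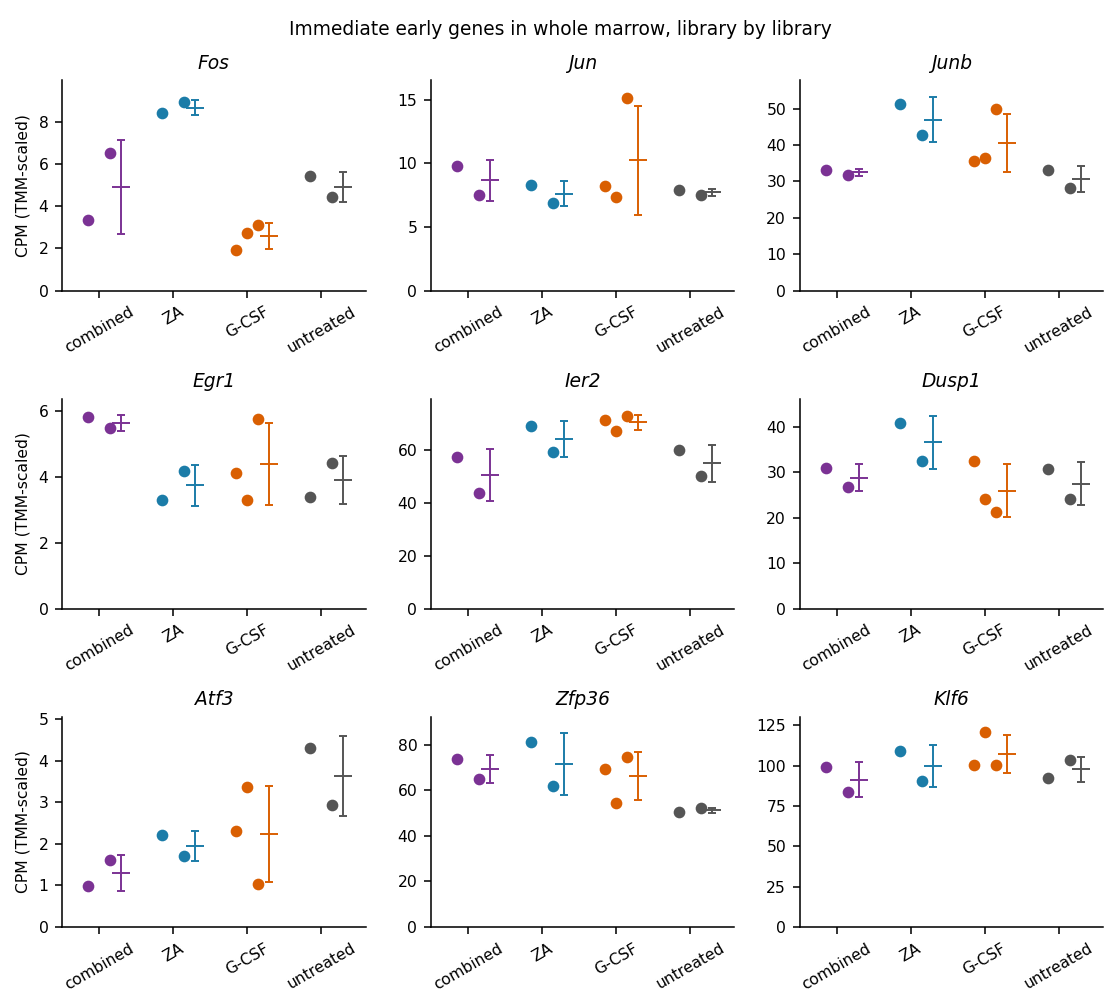
CPM of the 9 tested members in each whole marrow library (points; linear axes from 0), with the group mean and SD to the right of the points, in the combined, ZA, G-CSF and untreated groups (n = 2, 2, 3 and 2). The ZA points of Fos, 8.42 and 8.95 CPM, lie above all other groups, and its 3 G-CSF points, 1.93 to 3.12 CPM, lie below.

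Among the AP-1 genes, Fos carried the contrast between ZA and G-CSF. Fos had 8.42 and 8.95 CPM in ZA marrow, against 2.72, 1.93 and 3.12 CPM in G-CSF marrow. The groups did not overlap, and Fos was higher with ZA by 1.74 ± 0.36 on the log2 scale (SE; edgeR quasi-likelihood test, adjusted p = 0.0241). Of all genes tested, 5.06% were called in this comparison, 2.99% higher and 2.07% lower, and 1 of 9 members was called. The call rests on few counts: 60.8 and 79.2 in the ZA libraries, and 20.5 to 47.4 in the G-CSF libraries. It was lost when G-CSF 1, G-CSF 2, ZA 2 or ZA 3 was left out, at adjusted p of 0.0872, 0.0820, 0.105 and 0.0949, with log2 changes of 1.56 to 1.78. It was also lost on log2(TPM + 1), where the change was 0.73 against a median of -0.31 over all genes (limma, adjusted p = 0.327). The 8 monocyte and precursor markers, all above 0 in every library, summed to 457 and 423 TPM in ZA marrow and 106 to 132 TPM in G-CSF marrow. Most of that difference was Ly6c2, at 383 TPM in ZA 2 and 64.4 TPM in G-CSF 2. Csf1r, Irf8 and Cx3cr1 were also higher in ZA 2 than in G-CSF 2, but Kit, Flt3, Cd34 and Ccr2 were lower. The 4 megakaryocyte markers summed to 71.7 and 542 TPM in ZA marrow and to 1071 to 1361 TPM in G-CSF marrow, all above 0. The part of these markers in the Fos difference was not tested, and in bulk marrow fewer cells of a type and less RNA per cell cannot be told apart.

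Against untreated marrow, which had 5.43 and 4.42 CPM, Fos did not pass the threshold in any treated group. Combined marrow had 3.35 and 6.51 CPM, a spread that covered the untreated range, with a log2 change of 0.00 ± 0.41. ZA marrow was above both untreated libraries (0.82 ± 0.41, adjusted p = 0.548). G-CSF marrow was below both (-0.92 ± 0.38, adjusted p = 0.144). Combined marrow was above all 3 G-CSF libraries (0.92 ± 0.37, adjusted p = 0.443) and below both ZA libraries (-0.82 ± 0.40, adjusted p = 0.338). The term for a departure of the combination from the sum of the single treatments was 0.09 ± 0.54 (adjusted p = 0.960).

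Jun, the usual partner of Fos, had 9.77 and 7.53 CPM in combined, 8.29 and 6.91 in ZA, 8.19, 7.36 and 15.1 in G-CSF and 7.92 and 7.52 CPM in untreated marrow. All groups overlapped apart from the G-CSF 3 library, which alone exceeded 10 CPM. Jun overlaps the antisense gene Junos in 7.28% of its exon bases, and without known strand their reads cannot be told apart. Junb, a Jun relative that can restrain Jun activity, had 33.1 and 31.7 CPM in combined, 51.4 and 42.6 in ZA, 35.5, 36.5 and 49.8 in G-CSF and 33.1 and 28.1 CPM in untreated marrow. The ZA libraries were above the combined and untreated ones without overlap, and no Junb comparison passed the threshold: 0.62 ± 0.22 for ZA against untreated (adjusted p = 0.464) and -0.53 ± 0.21 for combined against ZA (adjusted p = 0.235). Its interaction term was -0.94 ± 0.29 (unadjusted p = 0.0100, adjusted p = 0.301). Junb shares 7.52% of its exon bases with Prdx2 on the opposite strand, which was listed at 674 to 1167 TPM in marrow, so its counts are uncertain by what that overlap took.

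Atf3, a stress-induced factor of the ATF and CREB family, had 0.99 and 1.60 CPM in combined, 2.21 and 1.70 in ZA, 2.31, 3.36 and 1.04 in G-CSF and 4.30 and 2.94 CPM in untreated marrow. The combined and ZA libraries were below both untreated libraries. Atf3 had the widest errors of the 9 members, with -1.48 ± 0.63 for combined against untreated (unadjusted p = 0.0427, adjusted p = 0.184).

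Of the early zinc-finger and nuclear genes, Egr1, a transcription factor induced through SRF, had 5.82 and 5.48 CPM in combined, 3.31 and 4.19 in ZA, 4.14, 3.30 and 5.77 in G-CSF and 3.40 and 4.42 CPM in untreated marrow. The combined libraries were above both untreated and both ZA libraries, by 0.52 ± 0.39 (adjusted p = 0.438) and 0.59 ± 0.38 (adjusted p = 0.495). Klf6, a Krüppel-like factor, ran from 83.7 to 121 CPM over all 9 libraries with every group overlapping another. Ier2, a short nuclear protein, had 57.4 and 43.7 CPM in combined, 68.9 and 59.2 in ZA, 71.3, 67.3 and 72.7 in G-CSF and 59.8 and 50.0 CPM in untreated marrow. The 3 G-CSF libraries were above both combined and both untreated libraries. Ier2 gave -0.48 ± 0.17 for combined against G-CSF (unadjusted p = 0.0211, adjusted p = 0.405) and an interaction term of -0.70 ± 0.26 (adjusted p = 0.364).

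The feedback genes did not pass the threshold either. Dusp1 had 30.9 and 26.7 CPM in combined, 40.7 and 32.4 in ZA, 32.5, 24.0 and 21.4 in G-CSF and 30.8 and 24.2 CPM in untreated marrow, where its ZA libraries were above both untreated ones (0.41 ± 0.25, adjusted p = 0.614). Zfp36 had 73.8 and 64.8 CPM in combined, 81.2 and 61.8 in ZA, 69.5, 54.3 and 74.4 in G-CSF and 50.3 and 52.0 CPM in untreated marrow. All 7 treated libraries were above both untreated ones, by 0.44 ± 0.21 in combined (adjusted p = 0.227), 0.48 ± 0.21 in ZA (adjusted p = 0.518) and 0.37 ± 0.19 in G-CSF (adjusted p = 0.234). Zfp36 shares 3.6% of its exon bases with the antisense gene Gm44710.

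**Figure D2:**
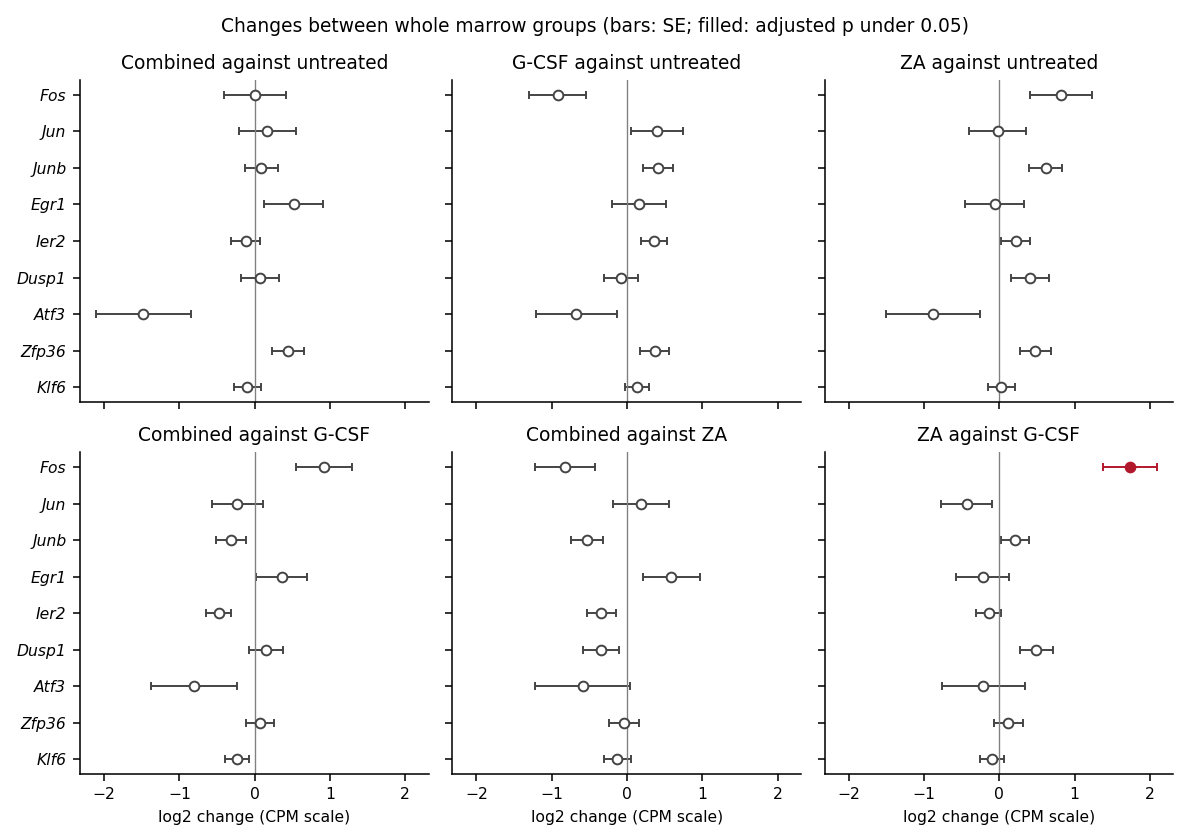
Log2 change of each tested member (points; bars are SE) in 6 comparisons of whole marrow groups, from the edgeR fit of 9 libraries. The filled point marks an adjusted p under 0.05: Fos in ZA against G-CSF, at 1.74, is the single one, and all other points are open.

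The count of members called is set beside that of all genes. For ZA against untreated 0 of 9 members and 0.0339% of 14737 genes were called by edgeR (0.00679% higher and 0.0271% lower). For combined against G-CSF and for the interaction these were 0 of 9 and 0.00679% of genes, all higher. For G-CSF against untreated 0 of 9 members were called beside 11.8% of genes (4.93% higher and 6.91% lower). For combined against untreated 0 of 9 were called beside 7.72% (3.17% higher and 4.55% lower), and for combined against ZA 0 of 9 beside 4.33% (1.87% higher and 2.46% lower). At an unadjusted p under 0.05 the members numbered 1, 2, 1, 2, 1 and 2 for G-CSF against untreated, ZA against untreated, combined against untreated, combined against G-CSF, combined against ZA and the interaction, and DESeq2 called 0 in each. The members' median log2 change against untreated was 0.07 in combined, 0.22 in ZA and 0.16 in G-CSF marrow, beside -0.01, 0.01 and 0.01 over all genes.

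The scale mattered for these medians. On log2(TPM + 1) the median of all genes against untreated was 0.87 in combined, 0.31 in ZA and 0.61 in G-CSF marrow, and the members' medians were 0.99, 0.66 and 0.75. Calls for G-CSF against untreated split into 727 higher and 1019 lower in edgeR but 1952 higher and 166 lower on that scale, and for combined against untreated into 467 and 670 but 4037 and 128. Small RNA genes took 39.95% of the TPM of the untreated 1 library and 7.96% to 15.2% in the other 8 marrow libraries. On log2(TPM + 1), limma called Ier2 higher in G-CSF marrow (1.15, adjusted p = 0.0448) and Dusp1 and Zfp36 higher in combined marrow (1.09 and 1.48, adjusted p = 0.0393 and 0.0320). Relative to the median of all genes these were 0.54, 0.22 and 0.61, and Fos in ZA against G-CSF was 1.04.

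Of the wider early response, 6 lists were described in the same fits: other AP-1 and bZIP genes, EGR and NR4A genes, other early genes, phosphatases with the Zfp36 family, upstream kinases with their factors, and heat shock genes. In G-CSF against untreated marrow they had 2 of 12, 1 of 5, 3 of 27, 1 of 9, 1 of 16 and 2 of 10 tested genes called, 10 of 79 in all, a share close to the 11.8% of all genes. Ppp1r15a (GADD34), which restores translation after stress, fell: 220, 211 and 146 CPM in G-CSF marrow against 551 and 445 CPM in untreated marrow (-1.37 ± 0.23, adjusted p = 0.00622). Nr4a1, an orphan nuclear receptor induced like Egr1, also fell, to 5.11, 5.33 and 6.43 CPM against 11.8 in both untreated libraries (-1.07 ± 0.25, adjusted p = 0.0261). Hspa8, the constitutive HSC70 chaperone, fell too, to 448, 543 and 541 CPM against 1111 and 1348 CPM (-1.27 ± 0.17, adjusted p = 0.00198). Mafk (-0.91 ± 0.14), Gadd45a (-0.68 ± 0.17) and Dusp16 (-1.49 ± 0.39) were also called lower, and Atf7 (0.84 ± 0.22), Map2k7 (0.92 ± 0.20), Hspd1 (0.66 ± 0.15) and Ctgf (3.21 ± 0.70) higher, at adjusted p of 0.0047 to 0.0383. Ctgf had at most 7.28 CPM. With any of the 9 marrow libraries left out, Ppp1r15a, Hspa8 and Mafk kept their calls, while Atf7 and Gadd45a lost theirs in 7 of 9 fits, Dusp16 in 6, Nr4a1 and Hspd1 in 4, and Ctgf and Map2k7 in 2. On log2(TPM + 1) limma called none of Ppp1r15a, Nr4a1, Hspa8 and Mafk (adjusted p of 0.261, 0.717, 0.477 and 0.901), nor in the other marrow comparisons where edgeR called them. The 8 monocyte and precursor markers summed to 106 to 132 TPM in G-CSF marrow and to 227 and 511 TPM in untreated marrow, and the 4 megakaryocyte markers to 1071 to 1361 TPM in G-CSF marrow and to 130 and 133 TPM in untreated marrow, all above 0. Their part in these changes was not tested.

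With ZA added the same named genes were tested again on shared untreated libraries. Combined against untreated marrow had 1 of 12 AP-1 and bZIP, 1 of 5 EGR and NR4A, 2 of 27 other early, 0 of 9 phosphatase, 1 of 16 kinase and 1 of 10 heat shock genes called, 6 of 79 in all, a share close to the 7.72% of all genes. The same marker sums were 102 and 131 TPM (monocyte and precursor) and 1600 and 1123 TPM (megakaryocyte) in combined marrow. Ppp1r15a had 247 and 186 CPM in combined marrow (-1.20 ± 0.26), Nr4a1 3.95 and 5.59 CPM (-1.30 ± 0.28), Hspa8 270 and 339 CPM (-2.01 ± 0.19) and Mafk 59.0 CPM in both (-0.67 ± 0.16), all lower than untreated at adjusted p of 0.000434 to 0.0369. Ctgf (2.83 ± 0.74) and Map2k7 (0.87 ± 0.21) were called higher. With a library left out, Ctgf lost its call in 8 of 9 fits, Map2k7 in 7, Mafk in 6, Nr4a1 in 4 and Ppp1r15a in 3, while Hspa8 kept it in all, and the replicate block ended the calls of Ctgf, Map2k7 and Mafk (adjusted p of 0.131, 0.118 and 0.125). In ZA against untreated marrow, in combined against G-CSF and in the interaction 0 of the 79 tested genes of the 6 lists were called by edgeR, 9, 7 and 13 had an unadjusted p under 0.05, and DESeq2 called 0, 3 and 0. Combined against ZA had 3 of 79 called, a share close to the 4.33% of all genes. They were Nr4a1 (-1.31 ± 0.28), Ppp1r15a (-1.10 ± 0.26) and Hspa8 (-1.64 ± 0.19). Of these Ppp1r15a lost its call in 7 of 9 fits that left out a library and under RLE scaling (adjusted p = 0.0507), and Nr4a1 in 6 of 9 and under the replicate block (adjusted p = 0.0762). ZA against G-CSF had 4 of 79 called, all higher, a share close to the 5.06% of all genes. They were Mafk (0.82 ± 0.14), Nr4a1 (1.07 ± 0.25), Ppp1r15a (1.27 ± 0.23) and Hspa8 (0.90 ± 0.17). With a library left out, Nr4a1 lost this call in 6 of 9 fits, Hspa8 in 3, and Mafk and Ppp1r15a in 1 each, and the block ended that of Nr4a1 (adjusted p = 0.0839). Beside the comparisons that set libraries with G-CSF against libraries without it, 61 genes were at 1 TPM or more in all libraries of one kind and at 0.1 TPM or less in all of the other (5 with and 4 without G-CSF), 50 of them on and 11 off with G-CSF. Treatment and any other difference between these sets of mice cannot be told apart.

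In run 1 precursors no member passed the threshold between treatments. Combined precursors, set against G-CSF precursors, had 0 of 9 members and 0% of 18779 genes called by edgeR, with 2 members and 1306 genes at an unadjusted p under 0.05. DESeq2 called 62 genes and 0 members. Fos had 15.3, 15.2 and 12.6 CPM in combined precursors, against 19.6, 22.9 and 19.9 CPM in G-CSF precursors. All 3 combined libraries were lower, by -0.53 ± 0.14 (unadjusted p = 0.00543, adjusted p = 0.687). The single ZA library had 10.3 CPM and the single untreated library 15.2 CPM of Fos. Ier2 had 85.6, 76.7 and 83.6 CPM in combined precursors, against 98.3, 88.6 and 93.5 CPM in G-CSF precursors (-0.19 ± 0.08, unadjusted p = 0.0498, adjusted p = 0.712). The other tested members differed by -0.56 to 0.58 with adjusted p of 0.712 to 0.984. Of the 9 members 8 were lower and 1, Egr1, was higher, with a median of -0.19 beside 0.01 over all genes.

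With G-CSF (6 libraries) against without (the untreated and the ZA library), fitted with ZA as a second term, 0 of 9 members and 0% of 17187 genes were called by edgeR. At an unadjusted p under 0.05 there were 1 member and 620 genes, and DESeq2 called 24 genes and 0 members. Fos was higher with G-CSF by 0.47 ± 0.13 (unadjusted p = 0.00699, adjusted p = 1.00), and the other members ran from -0.64 ± 0.83 for Egr1 to 0.19 ± 0.25 for Jun. By TPM, Ier2 led with a median of 32.4 TPM over the 8 libraries, then Klf6 with 15.8, Junb with 13.4, Zfp36 with 10.1, Fos with 5.33, Atf3 with 1.95, Jun with 1.14, Dusp1 with 0.570, Egr1 with 0.0707 and Fosb with 0.00364 TPM. Small RNA genes took 43.74% of the TPM of combined 1 and 18.9% to 33.9% in the other precursors. The erythroid markers, all 8 above 0, summed to 843, 1689 and 10035 TPM in combined precursors and to 842, 1434 and 343 TPM in G-CSF precursors, and their part in the Fos values was not tested.

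**Figure D3:**
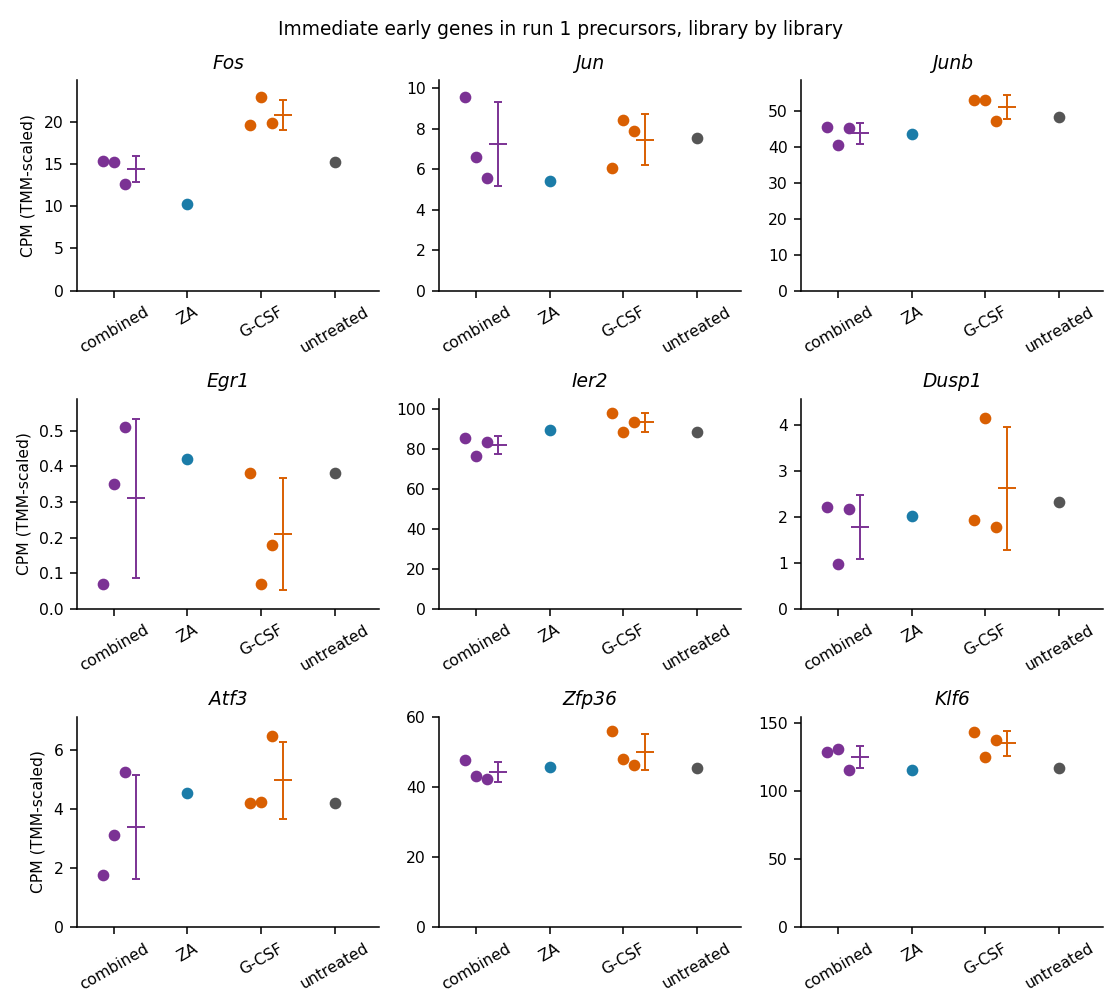
CPM of the 9 tested members in each run 1 precursor library (points; linear axes from 0), with the group mean and SD where a group has 3 libraries (combined and G-CSF; ZA and untreated have 1). The 3 combined points of Fos, 12.6 to 15.3 CPM, lie below the 3 G-CSF points, 19.6 to 22.9 CPM.

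Between precursors and whole marrow the members that edgeR called were all lower in precursors. Dusp1 and Egr1 were far lower, 17.5-fold and 17.6-fold, and Zfp36 was 1.95-fold lower. Fos was 2.47-fold higher without passing the threshold. The comparison set 5 run 1 precursor libraries (1 ZA, 3 G-CSF and 1 untreated) against the 3 run 1 marrow libraries, with treatment as a term, and CPM here are scaled within these 8 libraries. Dusp1 had 1.74 CPM in ZA, 1.67, 3.57 and 1.52 in G-CSF and 2.00 CPM in untreated precursors, against 50.4, 30.8 and 31.1 CPM in ZA, G-CSF and untreated marrow. The groups did not overlap (-4.13 ± 0.35, adjusted p = 0.000115). Egr1 had 0.36 CPM in ZA, 0.33, 0.06 and 0.16 in G-CSF and 0.33 CPM in untreated precursors, against 4.17, 4.27 and 5.69 CPM in ZA, G-CSF and untreated marrow (-4.14 ± 0.52, adjusted p = 0.000713). In precursors the Egr1 values stood for 1.85 to 11.3 counts per library. Dusp1 spans other annotated genes, but only 0.332% of its exon bases are shared, with Ergic1.

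Zfp36 had 39.5 CPM in ZA, 48.3, 41.3 and 39.7 in G-CSF and 39.0 CPM in untreated precursors, against 105, 72.4 and 69.7 CPM in ZA, G-CSF and untreated marrow, again without overlap (-0.96 ± 0.15, adjusted p = 0.00203). Jun had 4.65 to 7.24 CPM in precursors, against 9.62 to 10.5 CPM in marrow (-0.76 ± 0.23, adjusted p = 0.0293), and Klf6 99.5 to 123 CPM, against 128 to 149 CPM (-0.36 ± 0.10, adjusted p = 0.0210). These 5 of 9 members were called lower and 0 higher, where 43.8% of 17208 genes were called, 23.3% lower and 20.4% higher. The members' median was -0.36 beside 0.06 over all genes.

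Fos had 8.81 CPM in ZA, 16.9, 19.6 and 17.1 in G-CSF and 13.1 CPM in untreated precursors, against 9.67, 3.33 and 5.28 CPM in ZA, G-CSF and untreated marrow. The groups overlapped through ZA alone, where the precursor library was below the marrow library (1.30 ± 0.47, adjusted p = 0.0554). Fos was called without the marrow ZA 2 library (2.00, adjusted p = 0.00531), without the precursor ZA 3 library (2.01, adjusted p = 0.00507) and by DESeq2 (1.28, adjusted p = 0.0116). Without the marrow G-CSF 2 library its change was 0.53 (adjusted p = 0.274). Libraries with the same treatment and number gave 2.52 in G-CSF (19.6 CPM in precursors and 3.33 CPM in marrow) and 1.29 in untreated. Junb (-0.28 ± 0.17), Ier2 (-0.09 ± 0.11) and Atf3 (0.29 ± 0.31) did not pass the threshold, at adjusted p of 0.237, 0.558 and 0.484. Prdx2, which overlaps Junb, was listed at 66.8 to 120 TPM in run 1 precursors and at 674 to 1167 TPM in the marrow table. Its part in the Junb difference was not tested.

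**Figure D4:**
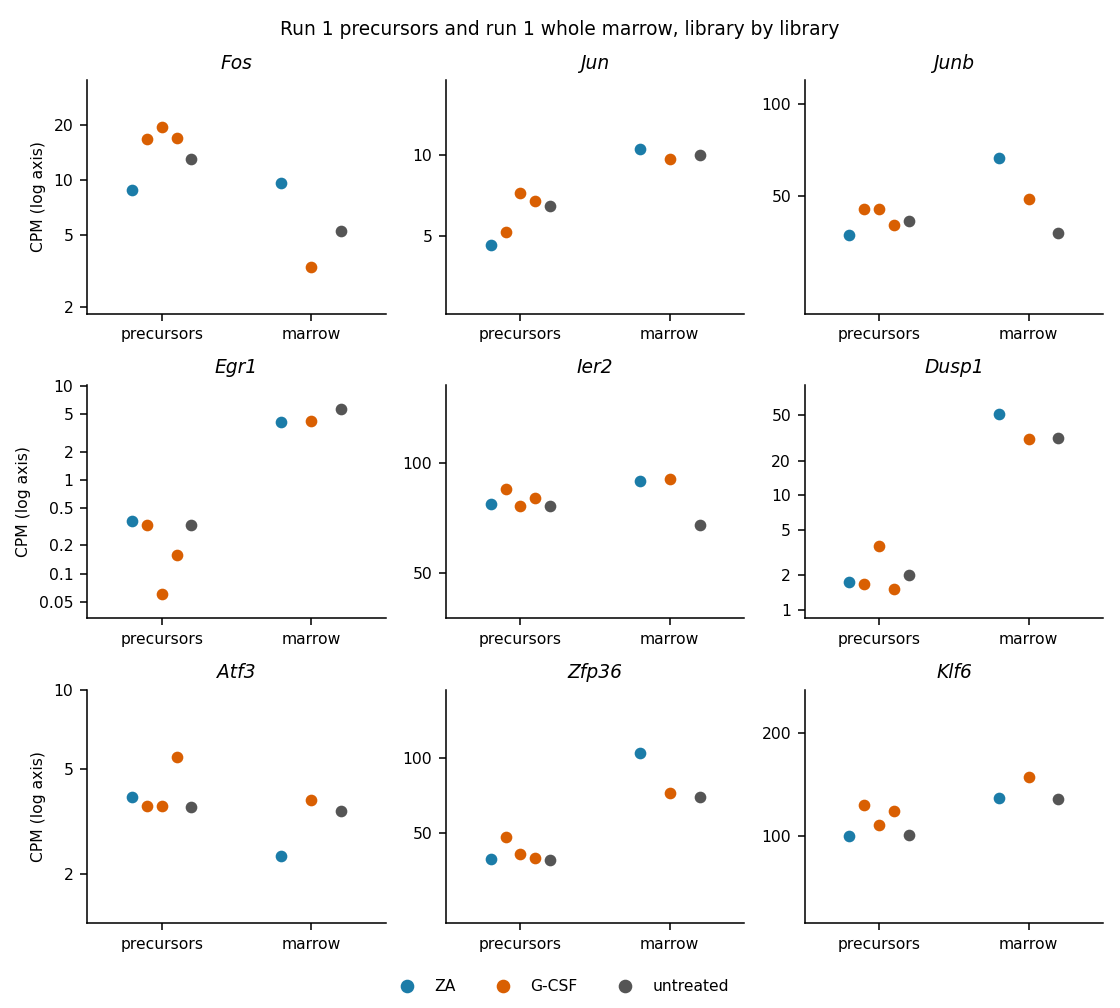
CPM of the 9 tested members in each run 1 library (points, coloured by treatment; log axes), with the 5 precursor libraries to the left of the 3 whole marrow libraries. Dusp1 and Egr1 separate widely, at 1.52 to 3.57 against 30.8 to 50.4 CPM and at 0.06 to 0.36 against 4.17 to 5.69 CPM, while Fos separates except for the ZA libraries.

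The direction of the smaller differences depended on the scale. On log2(TPM + 1) the median of all genes was 0.78 in favour of precursors, and the calls split into 8246 higher and 1392 lower, against 3513 and 4018 in edgeR. On that scale limma called Dusp1 lower (-2.19, adjusted p = 0.000197), and Fos (1.56, adjusted p = 0.00244) and Atf3 (0.66, adjusted p = 0.0246) higher. Egr1 did not pass the filter of 1 TPM in 2 libraries, and without that filter limma called it lower (-0.53). Zfp36 was at -0.09 (adjusted p = 0.674), while Jun (0.06) and Klf6 (0.47) turned positive without passing and Junb (0.55) and Ier2 (0.75) turned positive and passed, all below the median of all genes. Jun lost its call in 7 of 8 fits that left out a library (adjusted p up to 0.127; kept without precursor G-CSF 2), and Klf6 lost its call in 5 of 8 (adjusted p up to 0.0779; kept without either untreated library or precursor G-CSF 1). Dusp1, Egr1 and Zfp36 remained called with any of the 8 libraries left out. Neutrophil markers, 11 of 11 above 0 in every library, summed to 745 to 1405 TPM in these precursors and to 42914 to 51004 TPM in marrow, and their part in these differences was not tested. Precursors alone went through lineage depletion, staining and sorting, per the labels' protocols, so handling and cell type cannot be told apart.

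A further test, chosen after the data were seen, asked whether the G-CSF change differed between the run 1 tissues (11 libraries, 19962 genes, 7.14% called, 4.35% higher and 2.79% lower). It called 0 of 10 members with edgeR and 0 with DESeq2, with 2 at an unadjusted p under 0.05. Of these Fos differed more, by 1.13 ± 0.33 in favour of precursors (unadjusted p = 0.00803, adjusted p = 0.0779). Ier2 followed with -0.45 ± 0.17 (adjusted p = 0.167).

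Relatives of the members were called in both directions between precursors and marrow. In the 6 lists 49 of 83 tested genes were called, beside 43.8% of all genes (20.4% higher and 23.3% lower). Of the other AP-1 and bZIP genes 2 of 15 tested were called higher and 6 lower. Jund, the AP-1 subunit least dependent on induction, had 8.32 to 12.9 CPM in precursors, against 125 to 207 CPM in marrow (-3.89 ± 0.23), and Maf was also lower (-3.50 ± 0.20), while Fosl2 was higher (0.86 ± 0.18) and Fosl1 higher at under 1 CPM (3.09 ± 0.97). Of the EGR and NR4A genes 3 of 6 were higher and 2 lower. Egr2 had 11 counts over 5 precursor libraries and 26 over 3 marrow libraries (-3.72 ± 0.87), and Egr3 had 0 counts in precursors and 28.4 in marrow, at least 37.9-fold lower against a floor of 3 counts over the group. Nr4a1 (1.35 ± 0.38) and Nr4a2 (4.24 ± 0.82) were higher in precursors. Nr4a2 had 66.9 CPM in the ZA precursor library and 2.21 to 14.3 CPM in the other 4, against 0.61 to 1.00 CPM in marrow.

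Phosphatases and the Zfp36 family had 1 of 9 called higher and 5 lower. Zfp36l1 had 3.95 to 6.42 CPM in precursors, against 43.5 to 49.8 CPM in marrow (-3.29 ± 0.20), while its relative Zfp36l2 had 448 to 548 CPM in precursors, against 212 to 229 CPM in marrow (1.17 ± 0.10). Dusp8 (-6.71 ± 0.45) and Dusp2 (-2.03 ± 0.17) were lower like Dusp1. Other early genes had 3 of 27 called higher and 16 lower. Ppp1r15a had 3.22 to 6.29 CPM in precursors, against 270 to 671 CPM in marrow (-6.44 ± 0.22), and Ctgf had 0 counts in precursors and 66.3 in marrow, at least 88.6-fold lower. Klf4, which promotes monocyte differentiation, had 264 to 350 CPM in precursors, against 26.6 to 46.1 CPM in marrow (3.15 ± 0.22), and Klf10 was higher (0.95 ± 0.12) and Klf2 lower (-1.25 ± 0.17). The genes above had adjusted p of 2.41e-06 to 0.0352. Upstream kinases and factors had 7 of 16 higher and 0 lower, among them Creb1 (0.96 ± 0.18) and Mapk14 (0.82 ± 0.16). Heat shock genes had 2 of 10 higher, Hspa8 (1.08 ± 0.25) and Hsp90ab1 (0.90 ± 0.10), and 2 lower, Hspe1 (-0.60 ± 0.17) and Dnajb1 (-0.84 ± 0.14). Counted in either direction, the kinase and heat shock lists were close to the 43.8% of all genes. The median log2 change was -0.28, 0.90, -0.92, -1.22, 0.27 and -0.10 for the AP-1 and bZIP, EGR and NR4A, phosphatase, other early, kinase and heat shock lists, beside 0.06 over all genes.

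The members did not share a pattern across libraries. Over the 9 marrow libraries the correlation of a member's log2 CPM with the mean of the others ran from -0.618 for Egr1 to 0.652 for Junb, and over the 8 run 1 precursors from -0.470 for Egr1 to 0.749 for Junb. The mean of the centred members was highest in ZA 2 (0.25) among marrow libraries and between -0.09 and 0.06 in the other 8. Protein-coding genes whose pattern was most like that mean in marrow, out of 9910 with at least 5 CPM on average, were Cyp4f18, Lman2l, Cfap43, Fam177a, Atp5g1, AI837181, Mafg and Apobr, at Pearson r of 0.887 to 0.931. In precursors they were Sestd1, Ankra2, Syf2, Tbkbp1, Samhd1, Cyp27a1, Ifitm2 and Trim12c, at r of 0.947 to 0.966 out of 9734. With a prior count of 0.5 in place of 2, 7 of 8 and 5 of 8 of these were named again. These correlations share libraries and scaling and carry no p.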

How the data were processed

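RNA of whole marrow and of sorted Lin- CD115+ cells was sequenced from NEB Ultra RNA libraries, per the labels' protocols, which do not state strand. Salmon, without a version, DESeq2 1.16.1 and build mm10 are listed in the submitters' processing notes. The authors deposited estimated counts, which are not whole numbers, and TPM per Ensembl gene. The annotation release is not given in the sources used here, and 98.9% and 99.0% of identifiers matched GENCODE vM21 on GRCm38.

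After rounding, counts went through edgeR 4.0.16 (robust quasi-likelihood test, R 4.3.3) with filterByExpr (minimum count 10, minimum total count 15) and TMM scaling, on all genes of a table, with Benjamini-Hochberg adjusted p under 0.05 as the threshold. Adjusted p values come from this test unless limma 3.58.1 or DESeq2 1.42.0 is named. The test itself gives no SE. The SE printed with a log2 change is approximate, the absolute log2 change divided by the square root of the test's F statistic. Whole marrow was fitted as 4 groups in 9 libraries, run 1 precursors as 4 groups (or ZA and G-CSF terms) in 8, and precursors against marrow with a treatment term in 8. The tests were checked on simulated counts. For G-CSF against untreated, ZA against untreated and combined against G-CSF in marrow, 16.3%, 8.25% and 16.2% of simulated 2-fold changes were called. For 4-fold changes these were 59.8%, 55.7% and 72.7%. Combined against G-CSF precursors gave 51% for both sizes, and precursors against marrow 24% and 54.5%. Most simulated 2-fold changes in marrow were thus missed. Few genes were changed in each simulation, drawn at any abundance. For G-CSF against untreated they were 98 by 2-fold and 97 by 4-fold of 14462, while 1746 of 14737 were called in the data. The rates therefore need not hold for the members. False calls numbered 2 to 12 per simulation. Alternatives were DESeq2, RLE scaling, no filter, limma on log2(TPM + 1) or log2(TPM + 0.1), a replicate block, other sets of libraries and leaving out each library. Filtering for limma kept genes at 1 TPM or more in 2 libraries.

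The 10 members and the wider lists were chosen with earlier results of these data known. All members were named, and from each wider list the called genes, or the 2 greatest rises and 2 greatest falls where over 4 were called, with paralogs of members by value. Run 2 libraries were used in alternatives only, because several went against their labels.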

Additional observations from a re-analysis of the deposited data

Results flagged for a closer look

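By CPM, Fos moved in opposite directions in whole marrow and in run 1 precursors in 4 contrasts. In both tissues every library of one group then lay on one side of every library of the other. By TPM, G-CSF (0.525 to 1.03) and untreated marrow (0.598 and 1.10) overlapped. Combined and ZA also overlapped by TPM, in marrow (1.21 and 2.54 against 1.82 and 2.10) and in precursors (3.27 to 5.33 against 3.52). The share of all genes that separate in this way is not given here. Combined against G-CSF, the log2 ratio of mean CPM was 0.93 in marrow and -0.53 in precursors (3 against 3 libraries). G-CSF against untreated, it was -0.93 in marrow and 0.45 in precursors (3 against 1). Combined against ZA, it was -0.82 in marrow and 0.49 in precursors (3 against 1). ZA against G-CSF, it was 1.75 in marrow and -1.02 in precursors (1 against 3). These differences between tissues were not tested contrast by contrast, the contrasts share libraries, and the groups hold as few as 1 library. The one test of a difference between tissues, of the G-CSF change in run 1, left Fos at 1.13 ± 0.33 with an adjusted p of 0.0779 (edgeR).

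Some of the run 2 libraries, used in alternatives only, held signal for the genes that were low in run 1 precursors. Dusp1 reached 7.70 TPM among the 15 run 2 libraries labelled precursors, 7 of them above the highest run 1 precursor (1.05 TPM). Egr1 reached 0.845 TPM, with 10 of 15 above the highest run 1 precursor (0.0787 TPM). Among these, G-CSF 4, ZA 6 and ZA 8 were low in Dusp1 and passed that level narrowly. They had 0.0983, 0.127 and 0.109 TPM of Egr1, on 13.1, 4.72 and 10.4 counts. The 7 libraries high in Dusp1 are the 5 libraries nearer to run 1 marrow than to run 1 precursors in their correlation across genes, among them untreated 7, which held both maxima, and the combined 3 and G-CSF 1 libraries, whose 8 erythroid markers summed to 133498 and 84311 TPM (343 to 10035 TPM in run 1 precursors). No group had 4 or more libraries of one kind within run 1 or the marrow table, so no single library could be tested as an outlier.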

How the results depend on the processing

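Depth limits Egr1 in precursors (1.85 to 13.8 counts per library), Fosb everywhere and Fos in marrow (20.5 to 79.2 counts), and the 2 or 3 libraries a group limit every marrow comparison. The number of members called is given first. ZA against G-CSF had 0, in place of 1, under all 4 limma settings and under the replicate block, where Fos was at 1.61 (adjusted p = 0.0573), and 0 or 1 when single libraries were left out. G-CSF against untreated had 1 on log2(TPM + 1), 1 on log2(TPM + 0.1) and 3 on TPM rescaled without small RNA genes, a setting chosen after seeing the data. Combined against untreated had 2, 3 and 5 in these settings. Precursors against marrow had 3 without the filter on low counts, 3 under the block of treatment and number, 3 to 4 when single libraries were left out, and 0 in run 2 libraries, against 6 by DESeq2, 5 on log2(TPM + 1) and 6 under each of the other 3 limma settings. Atf3, not called by edgeR, was called higher on log2(TPM + 1) and log2(TPM + 0.1) (0.66 and 1.07, limma, adjusted p = 0.0246 and 0.0194). The other comparisons had 0 members called under every alternative run.

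Signs turned on TPM scales as follows. For G-CSF against untreated, Gadd45a was at 0.17 under 3 limma settings. For combined against untreated, Mafk was at 0.48 on log2(TPM + 1), with or without the filter, 0.53 on log2(TPM + 0.1) and 0.28 rescaled, where Ier2 and Klf6 were both at 0.80. For precursors against marrow, Jun, Junb, Ier2 and Klf6 were at 0.06, 0.55, 0.75 and 0.47 on log2(TPM + 1) (the same without the filter), at 0.10, 0.59, 0.78 and 0.51 on log2(TPM + 0.1), and at 0.18, 0.74, 0.95 and 0.67 rescaled. Zfp36 was at 0.10 rescaled. Hspe1 was at 0.28 in 3 settings and 0.48 rescaled, and Dnajb1 at 0.03 and 0.22. The all-gene medians there were 0.78, 0.99 and 0.91.

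In run 2 libraries, several of which go against their labels, every called gene named here but Fosl2 and Hspe1 turned sign. The members Jun, Egr1, Dusp1, Zfp36 and Klf6 were at 0.20, 0.30, 1.02, 0.33 and 0.16. Jund, Maf, Egr2, Egr3, Dnajb1, Ppp1r15a, Ctgf, Zfp36l1, Dusp8, Dusp2 and Klf2 were at 1.16, 0.52, 2.89, 1.84, 0.18, 1.91, 1.70, 0.56, 1.09, 0.50 and 0.21. Fosl1, Nr4a2, Nr4a1, Hspa8, Hsp90ab1, Klf4, Klf10, Zfp36l2, Creb1 and Mapk14 were at -0.80, -1.28, -0.37, -0.22, -0.30, -0.43, -0.15, -0.29, -0.10 and -0.06. The cause was not tested.

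The replicate block changed no other member's call between treatments. Among other named genes in marrow it ended the calls of Gadd45a and Dusp16 in G-CSF against untreated (adjusted p of 0.0505 and 0.0613), and those given in the report for Mafk, Ctgf, Map2k7 and Nr4a1. Fitting 2 groups alone also ended these, and those of Nr4a1 in combined against untreated (adjusted p = 0.0835) and Ppp1r15a in combined against ZA (adjusted p = 0.073). Without the filter on low counts Mafk in combined against untreated (adjusted p = 0.0814) and Nr4a1 in ZA against G-CSF (adjusted p = 0.0534) were lost. Same-numbered libraries deviated together at r of -0.06 to 0.14 in marrow and -0.05 to -0.03 in precursors. In groups of 2 libraries the deviations mirror each other, so these r cannot settle whether same-numbered libraries share more than a number. Of 2656 values of named genes under alternatives, 2300 kept their side of the threshold, 167 of them uncalled and with another sign.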
